A study of Mus musculus with 15 samples.

Results

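The unfolded protein response and the integrated stress response were followed in the mouse auditory nerve after noise through 36 genes. They were listed by symbol as the genes of 4 roles, a list drawn up with earlier results of these data known: 14 chaperones of the endoplasmic reticulum (ER), 4 genes of ER degradation, 5 stress sensors and transcription factors, and 13 targets of the factor ATF4. All 36 had a probe set that the platform annotation assigns to them alone, and they were 36 of 18193 such genes. A gene with several probe sets was represented by the set with the highest mean over the 15 arrays. After the lowest 25% of genes by that mean were left out, 13644 genes were tested, and all 36 members were among them. The lowest member mean was 5.28 (Trib3), above the filter level of 4.70, and the filter used the mean of all arrays, so no member entered only through a group in which it was high.

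The arrays were Affymetrix 3' expression arrays of RNA from the modiolus, the core of the cochlea that holds the auditory nerve, with the outer bone, the lateral wall and the greater part of the sensory epithelium dissected away. All mice were of the CBA/CaJ strain, bred in-house in quiet housing, and each array held RNA from both ears of 1 animal. The 5 groups of 3 animals were adult controls without noise and mice killed immediately, 1 day, 7 days or 14 days after 2 h of noise in the 8 to 16 kHz band at 106 dB SPL, given at an age of 5 to 12 weeks. The controls were all female, the immediate group held 2 females and 1 male, the 1-day group was all male, and the 7-day and 14-day groups each held 2 females and 1 male. Values are the deposited log2 intensities, and array medians lay between 5.87 and 5.92. All 12 listed spiral ganglion neuron markers and 8 of 10 Schwann cell markers were above the filter. In such bulk tissue fewer cells of a type and less RNA per cell cannot be told apart.

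The unfolded protein response answers unfolded protein in the ER through 3 sensors in its membrane. ERN1 (IRE1) splices the Xbp1 transcript, ATF6 is cut to release a transcription factor, and EIF2AK3 (PERK) phosphorylates the initiation factor eIF2α. XBP1 and ATF6 raise chaperones and degradation genes. Phosphorylated eIF2α slows most translation and lets ATF4 be made, and since other kinases also phosphorylate eIF2α, for example on amino acid shortage, this arm is known as the integrated stress response. Neurons and myelinating glia make large amounts of membrane and secreted protein, and both arms are known to act in them after injury.

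The promoters of both main roles differ in known elements, which are shown because the chaperones and the ATF4 targets are compared throughout. Windows from 250 bases before to 50 bases after the start site were taken from RefSeq (mouse build GRCm38.p6) and held 33 of the 36 members; Hyou1, Manf and Atf6 had no window. The ER stress response element (ERSE, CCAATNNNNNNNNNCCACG) was searched on both strands and matched in 7 of 12 chaperone windows, those of Hspa5, Hsp90b1, Pdia6, Calr, Canx, Creld2 and Dnajc3, in the Syvn1 window, and in 0 of 13 ATF4 target windows. It matched in 39 of all 32851 windows (0.119%). A related element, ERSE-II (ATTGGNCCACG), matched in Dnajb11 and Herpud1 and in 12 windows in all (0.037%). The C/EBP-ATF response element (CARE, TGATGNAA), which ATF4 binds, matched in 4 of 13 ATF4 targets (Asns, Chac1, Trib3 and Vldlr), in Herpud1, and in 0 of 12 chaperones, against 3.969% of all windows. The XBP1 element UPRE (TGACGTGG) matched in 0 of 33 member windows and in 0.676% of all windows. ERSE was originally defined on promoters such as that of Hspa5, so its presence in chaperones is background and not a result. The same holds for CARE in genes that were listed as known targets of ATF4. The 250 bases before the start site follow, 5′ to 3′ on the gene's strand, with matches in capitals: ERSE in Hspa5 (chr2:34771840-34772089, plus strand), Hsp90b1 (chr10:86705445-86705694, minus strand) and Creld2 (chr15:88819396-88819645, plus strand), ERSE-II and CARE in Herpud1 (chr8:94386179-94386428, plus strand), and CARE in Asns (chr6:7693210-7693459, minus strand) and Chac1 (chr2:119350992-119351241, plus strand).
Hspa5: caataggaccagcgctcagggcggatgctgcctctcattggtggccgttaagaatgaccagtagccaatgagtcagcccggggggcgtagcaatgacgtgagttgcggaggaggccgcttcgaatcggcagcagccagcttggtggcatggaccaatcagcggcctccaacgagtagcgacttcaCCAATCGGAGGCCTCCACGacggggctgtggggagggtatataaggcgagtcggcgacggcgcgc
Hsp90b1: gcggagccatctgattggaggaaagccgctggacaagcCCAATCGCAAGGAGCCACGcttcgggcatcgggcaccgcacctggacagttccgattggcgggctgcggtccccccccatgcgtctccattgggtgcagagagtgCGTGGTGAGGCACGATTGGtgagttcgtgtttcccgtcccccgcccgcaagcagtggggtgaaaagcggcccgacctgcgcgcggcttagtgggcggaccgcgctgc
Creld2: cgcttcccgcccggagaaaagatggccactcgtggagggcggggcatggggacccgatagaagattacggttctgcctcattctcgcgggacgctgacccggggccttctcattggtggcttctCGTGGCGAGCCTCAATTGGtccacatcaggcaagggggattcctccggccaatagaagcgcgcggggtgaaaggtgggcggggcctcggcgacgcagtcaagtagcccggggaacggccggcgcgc
Herpud1: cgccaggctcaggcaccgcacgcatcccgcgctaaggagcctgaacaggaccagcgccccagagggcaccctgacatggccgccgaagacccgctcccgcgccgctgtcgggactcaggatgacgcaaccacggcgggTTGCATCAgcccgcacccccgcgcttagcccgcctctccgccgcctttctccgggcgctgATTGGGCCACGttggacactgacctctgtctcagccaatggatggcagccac
Asns: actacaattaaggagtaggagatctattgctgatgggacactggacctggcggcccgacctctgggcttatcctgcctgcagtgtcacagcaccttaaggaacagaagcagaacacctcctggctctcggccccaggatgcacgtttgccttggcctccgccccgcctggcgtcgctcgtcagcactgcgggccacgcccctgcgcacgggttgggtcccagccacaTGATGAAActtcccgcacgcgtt
Chac1: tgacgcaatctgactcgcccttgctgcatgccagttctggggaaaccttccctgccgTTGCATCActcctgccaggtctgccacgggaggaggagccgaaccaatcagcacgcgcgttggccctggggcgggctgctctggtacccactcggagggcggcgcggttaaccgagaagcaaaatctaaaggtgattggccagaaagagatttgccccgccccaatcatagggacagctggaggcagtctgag

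The ERSE lay at -65 to -47 from the start site in Hspa5. Hsp90b1 held it at -212 to -194 and again, on the opposite strand, at -107 to -89. In Asns the CARE lay at -23 to -16 on the gene's strand, and in Chac1 it lay at -193 to -186 on the opposite strand. No CARE match was found in the windows of Shmt2 and Cebpb, which says only that these letters are not in those windows.

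Few members passed the test against control, and those that did were ATF4 targets. Immediately after noise Cebpb and Chac1 rose, and at 1 day Chac1, Shmt2 and Asns rose (limma, Benjamini-Hochberg adjusted p under 0.05 over all genes tested). No member fell against control at any time. At 7 days and at 14 days 0 of 36 members were called. The count was 2 of 36 immediately, where 0.931% of all genes were called in either direction, and 3 of 36 at 1 day, where 3.18% were. At 7 days 0.022% and at 14 days 0% of all genes were called. At an unadjusted p under 0.05, 8 members were above and 1 below control immediately (15.5% of all genes in either direction), and 8 above and 2 below at 1 day (17.9%). The same count was 2 above at 7 days (11.2%) and 2 above at 14 days (7.85%), so the members' share was under that of all genes at both late times.

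Small differences above control were more common among members than among all genes at the early times. Immediately after noise 31 of 36 members had a mean above control, against 44.5% of all genes, and the median member difference was 0.13 against -0.02 for all genes. At 1 day the count was 27 (47.1% of all genes) with a median of 0.05, at 7 days 23 (53%) with a median of 0.07, and at 14 days 19 (56.6%) with a median of 0.04. All 3 noise arrays lay above all 3 controls for 13 members immediately (8.86% of all genes), for 7 at 1 day (10.1%), for 1 at 7 days (8.19%) and for 0 at 14 days (8.77%). An F test over the 5 groups called Cebpb, Chac1 and Shmt2, 3 of 36, against 6.75% of all genes.

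**Figure D1:**
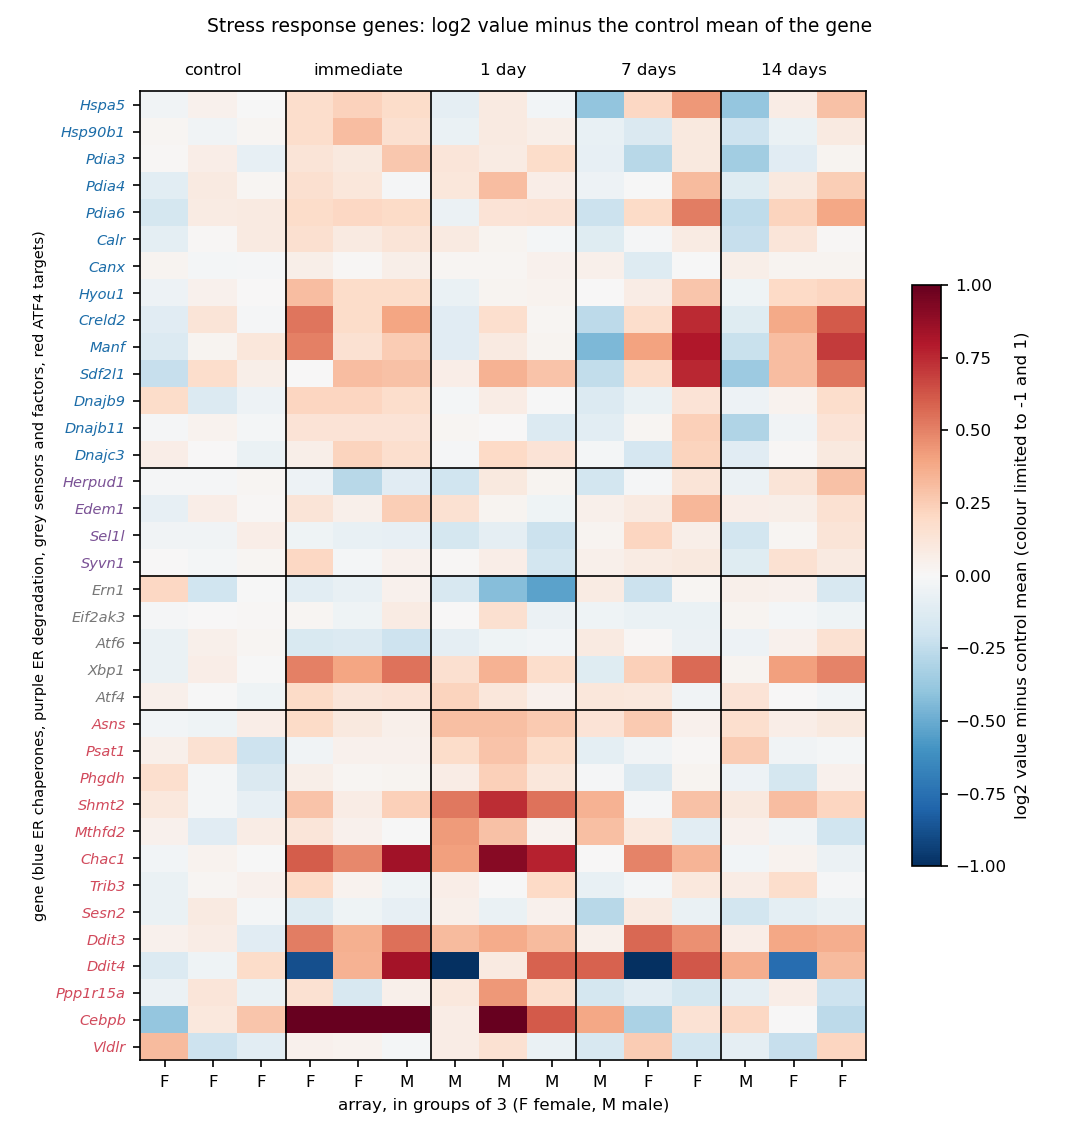
Colours give each member's log2 value minus its control mean on each of the 15 arrays, limited to -1 and 1, with genes in rows by role and arrays in columns by group, marked F or M for the animal's sex. The chaperone rows are faintly red on all 3 immediate arrays, Chac1 is red immediately and at 1 day, and the male arrays at 7 and 14 days are the bluest in the chaperone rows.

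Among the ATF4 targets, Cebpb showed the widest change. It encodes the transcription factor C/EBPβ, a partner of ATF4 that cytokine signals induce too. Cebpb read 9.03, 9.52 and 9.69 in controls and 10.99, 10.52 and 11.16 immediately after noise. It read 9.49, 10.41 and 10.03 at 1 day, 9.80, 9.10 and 9.56 at 7 days, and 9.62, 9.42 and 9.15 at 14 days. The immediate arrays all lay above every other array of the study, and by 7 days the values overlapped those of controls. The immediate difference was 1.48 ± 0.24 on the log2 scale (SE, n = 3 against 3; 2.78-fold; limma adjusted p = 0.00987). At 1 day it was 0.56 ± 0.24 and did not pass (adjusted p = 0.231). The immediate call was lost without immediate replicate 3 (adjusted p = 0.0682) and in female arrays alone (1.34, adjusted p = 0.0769).

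Chac1, which encodes an enzyme that breaks down glutathione and is a known target of ATF4 and CHOP, rose immediately and at 1 day. Its control values were 6.51, 6.57 and 6.53. They were 7.14, 7.02 and 7.38 immediately and 6.95, 7.45 and 7.31 at 1 day, so that all 6 early noise arrays lay above all controls. At 7 days Chac1 read 6.54, 7.03 and 6.88, with replicate 1 inside the control range, and at 14 days 6.51, 6.57 and 6.48, close to the controls on all 3 arrays. The difference was 0.64 ± 0.14 immediately (1.56-fold, limma adjusted p = 0.0373) and 0.70 ± 0.14 at 1 day (1.62-fold, adjusted p = 0.0144). The immediate call was close to the threshold: it was lost when any 1 control or any 1 immediate array was left out, with 1-day replicate 3 or 14-day replicate 1 or 2 left out, and in 9 of 15 such fits in all, with differences of 0.54 to 0.72 and adjusted p up to 0.206. The 1-day call was lost without control replicate 3 or without 1-day replicate 2 or 3 (0.59 to 0.84 over all 15 fits, adjusted p up to 0.0829).

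Shmt2 encodes the mitochondrial enzyme that turns serine into glycine and feeds the folate pool. It read 6.45, 6.32 and 6.26 in controls, 6.63, 6.42 and 6.58 immediately, and 6.87, 7.08 and 6.89 at 1 day. At 7 days the values were 6.69, 6.33 and 6.64, and at 14 days 6.44, 6.65 and 6.56. The 3 arrays of 1 day lay above all 12 others. The 1-day difference was 0.60 ± 0.11 (1.52-fold, limma adjusted p = 0.00871), and 1 day also exceeded the immediate group by 0.40 ± 0.11 (adjusted p = 0.0332) and fell by 0.39 to 7 days (adjusted p = 0.0336). The call against control was lost without 1-day replicate 2 (adjusted p = 0.0552). Shmt2 had 4 probe sets, and their 1-day differences were 0.60, 0.24, 0.18 and 0.16, all above 0; with the mean over its probe sets the difference from control was 0.30, that from the immediate group 0.26 and that from 1 to 7 days -0.13, and none of them was called (adjusted p = 0.0574, 0.0572 and 0.342).

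Asns encodes asparagine synthetase, a long-known target of the amino acid arm of this response. Its values were 9.42, 9.41 and 9.52 in controls, 9.64, 9.55 and 9.50 immediately, and 9.75, 9.75 and 9.71 at 1 day. They were 9.59, 9.71 and 9.49 at 7 days and 9.62, 9.52 and 9.55 at 14 days. All 3 arrays of 1 day lay above the controls and none overlapped them. The 1-day difference was small, 0.29 ± 0.06 (1.22-fold, limma adjusted p = 0.0212), and the other Asns probe set gave 0.35. Leaving out control replicate 1 or 2, or 1-day replicate 2 or 3, ended the Asns call (0.27 to 0.32 over the 15 fits, adjusted p up to 0.0904).

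Ddit3, which encodes the factor CHOP, read above all controls on all 6 early noise arrays but did not pass the test. It read 8.83, 8.86 and 8.67 in controls, 9.30, 9.14 and 9.34 immediately, and 9.10, 9.16 and 9.10 at 1 day. At 7 days it read 8.84, 9.36 and 9.24 and at 14 days 8.85, 9.17 and 9.15, where the male array of each group lay in the control range and both females above it. Its differences were 0.47 ± 0.12 immediately (limma adjusted p = 0.0712), 0.33 at 1 day (0.136), 0.36 at 7 days (0.29) and 0.27 at 14 days (0.604). With only control and immediate arrays in the fit, Ddit3 passed immediately (adjusted p = 0.0314).

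Ppp1r15a encodes GADD34, which leads a phosphatase back to eIF2α and so closes the loop. Its values were 8.31, 8.49 and 8.30 in controls, 8.52, 8.21 and 8.42 immediately, 8.47, 8.80 and 8.54 at 1 day, 8.19, 8.26 and 8.19 at 7 days, and 8.28, 8.43 and 8.16 at 14 days. The 1-day difference from control of 0.24 did not pass (limma adjusted p = 0.225). From 1 day to 7 days Ppp1r15a fell by 0.39 (adjusted p = 0.0267), and the arrays of these groups did not overlap. That call was lost when 1-day replicate 2 or any 1 array of 7 days was left out (-0.46 to -0.29, adjusted p up to 0.128).

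**Figure D2:**
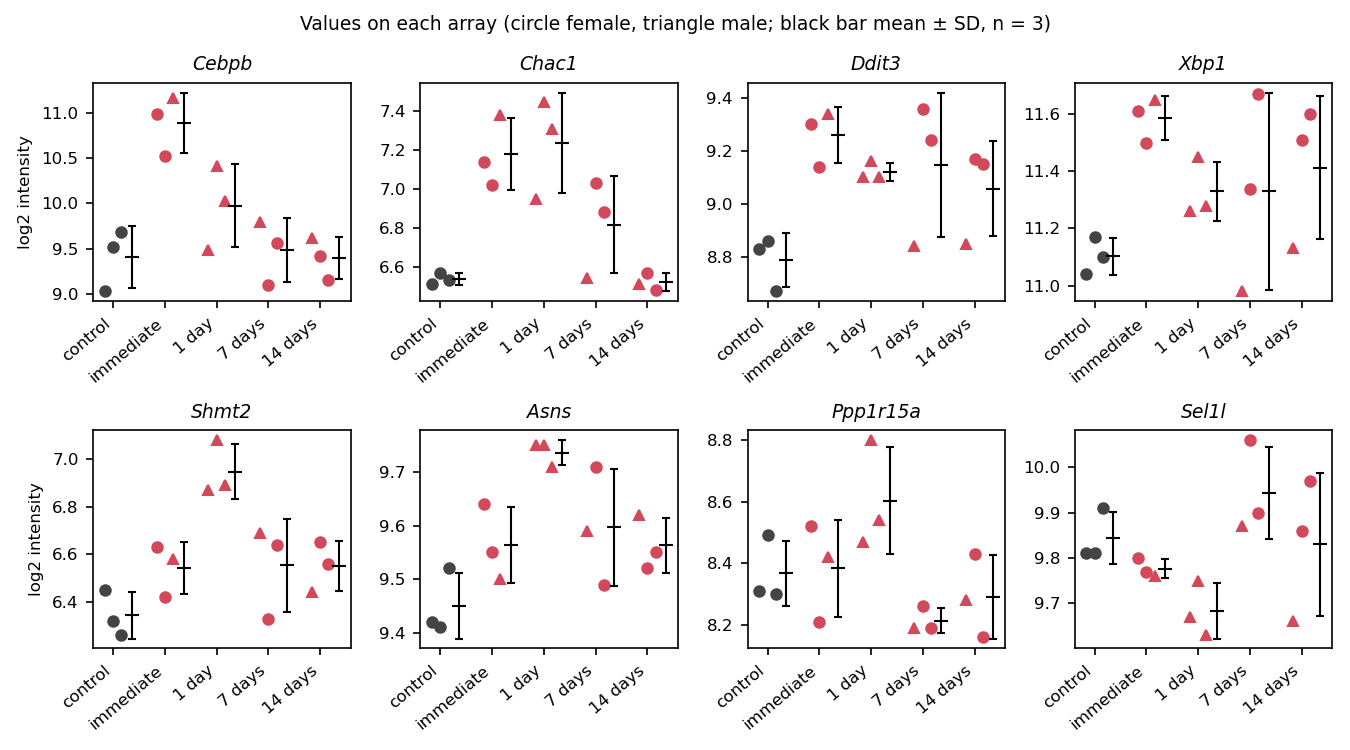
Log2 intensity on each array (circles female, triangles male, controls dark) with the group mean and SD (n = 3) for 8 members. Cebpb is highest immediately, Shmt2 and Asns are highest at 1 day, and Chac1 is above the controls on all arrays of both early groups.

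The other 7 ATF4 targets were not called in any comparison. Psat1 and Phgdh, enzymes of serine synthesis, differed from control by 0.02 and 0.03 immediately and by 0.22 (limma adjusted p = 0.22) and 0.14 (0.37) at 1 day, and the 3 values of Psat1 at 1 day (8.91, 9.01 and 8.91) all lay above its controls. Mthfd2, the mitochondrial folate enzyme that acts after Shmt2, differed by 0.05 and then 0.25 (adjusted p = 0.259). Trib3, a pseudokinase, and Sesn2, which restrains mTORC1 on leucine shortage, differed by at most 0.12 in either direction at any time. Ddit4, an mTORC1 inhibitor, ranged more widely within groups than between them: immediately it read 7.06, 8.29 and 8.77, and at 1 day 6.88, 8.03 and 8.53, against 7.80, 7.90 and 8.12 in controls. Vldlr, a lipoprotein receptor induced by ATF4, differed by 0.02 to 0.05 at these times.

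As a group the 13 ATF4 targets stood further from control at 1 day than immediately. Their median difference was 0.06 immediately, 0.24 at 1 day, 0.07 at 7 days and -0.02 at 14 days. At 1 day 12 of 13 were above control (47.1% of all genes), 8 at an unadjusted p under 0.05 (17.9% of all genes in either direction). For 5 targets all 3 arrays lay above all controls (10.1% of all genes). Immediately 12 of 13 were also above control (44.5% of all genes), 8 without control replicate 3. Only 3 had an unadjusted p under 0.05 there (15.5% of all genes in either direction), those being Cebpb, Chac1 and Ddit3.

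The 14 ER chaperones showed another course. Immediately after noise all 14 were above control (44.5% of all genes) by small amounts, from 0.04 (Canx) to 0.37 (Creld2), with a median of 0.20. For 8 of them all 3 arrays lay above all controls (8.86% of all genes). Of the 14, 0 passed the test (limma) and 3 had an unadjusted p under 0.05, where 15.5% of all genes did. These were Hyou1, Hsp90b1 and Dnajb9. With any 1 array left out, all 14 were still above control immediately. At 1 day the median was 0.03 with 11 of 14 above control (47.1% of all genes). It was 0.07 at 7 days with 9 above (53%) and 0.05 at 14 days with 8 above (56.6%). At each of these times 0 were called and 0 had an unadjusted p under 0.05, where 17.9%, 11.2% and 7.85% of all genes did. These later counts turned on single arrays. At 1 day the count was 7 without control replicate 1 or without 1-day replicate 2. At 7 days it was 1 without replicate 3 and 13 without replicate 2, and at 14 days 4 without replicate 3 and 13 without replicate 1.

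Creld2, an ER-resident protein induced by ER stress, had the widest immediate difference. It read 7.82, 8.06 and 7.92 in controls, 8.47, 8.12 and 8.33 immediately, and 7.82, 8.10 and 7.95 at 1 day. At 7 days it read 7.67, 8.11 and 8.68 and at 14 days 7.81, 8.31 and 8.55. The immediate arrays lay above the controls, and at the late times the male array lay lowest and the 2 females spread above the controls. The immediate difference of 0.37 ± 0.21 did not pass (limma adjusted p = 0.423).

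Manf, a secreted ER protein with neurotrophic activity, followed the same course. Its values were 10.02, 10.19 and 10.27 in controls, 10.66, 10.31 and 10.41 immediately, and 10.05, 10.25 and 10.19 at 1 day. At 7 days they were 9.71, 10.56 and 10.96 and at 14 days 9.94, 10.47 and 10.86. All 3 immediate arrays exceeded the controls, while the late groups reached from below the lowest control to above the highest. The differences were 0.30 ± 0.25 immediately, 0.00 at 1 day, 0.25 at 7 days and 0.26 at 14 days, with limma adjusted p of 0.619, 0.999, 0.752 and 0.844.

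Sdf2l1 and Pdia4 had the widest chaperone differences at 1 day. Sdf2l1, a partner of the Hspa5 chaperone cycle, read 7.01, 7.42 and 7.30 in controls, 7.25, 7.55 and 7.54 immediately and 7.31, 7.59 and 7.53 at 1 day. It read 7.00, 7.42 and 8.00 at 7 days and 6.88, 7.55 and 7.78 at 14 days, and every noise group overlapped the controls. Its differences were 0.20 and 0.23 ± 0.23 at the early times. Pdia4, a disulfide isomerase, read 9.08, 9.27 and 9.20 in controls, 9.34, 9.30 and 9.17 immediately, 9.30, 9.49 and 9.25 at 1 day, 9.13, 9.18 and 9.50 at 7 days, and 9.06, 9.28 and 9.43 at 14 days. Its 1-day difference was 0.16 ± 0.11 (limma adjusted p = 0.459), with overlap.

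The major chaperones were also above control immediately and did not pass. Hspa5, the ER Hsp70 known as BiP, read 11.50, 11.58 and 11.53 in controls and 11.71, 11.77 and 11.72 immediately, without overlap, a difference of 0.20 ± 0.17 (limma adjusted p = 0.638). At 1 day, where all animals were male and all controls female, it read 11.45, 11.63 and 11.51, overlapping the controls. Its 1-day difference was -0.0067, and 0.43 with sex as a term (adjusted p = 0.202). Hsp90b1, the ER Hsp90, read 11.88, 11.83 and 11.88 in controls and 12.04, 12.17 and 12.02 immediately, a difference of 0.21 ± 0.07 (adjusted p = 0.184). Hyou1, which exchanges nucleotide on Hspa5, read 9.09, 9.19 and 9.15 in controls and 9.45, 9.33 and 9.33 immediately, a difference of 0.23 ± 0.08 (adjusted p = 0.189).

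The remaining chaperones lay in the same immediate range. The disulfide isomerases Pdia3 and Pdia6 differed by 0.17 and 0.19, the lectin chaperones Calr and Canx by 0.13 and 0.04, and the J-domain proteins Dnajb9, Dnajb11 and Dnajc3, which direct substrates to Hspa5, by 0.20, 0.14 and 0.15. The 7 chaperones with an ERSE match had a median immediate difference of 0.19, and the 5 with a window and no match had 0.17. Of the 14 chaperones, 12 were lower at 1 day than immediately (median -0.15). In the main fit 0 passed and 3 had an unadjusted p under 0.05, a share below the 24.4% of all genes. With sex as a term in the fit that median was -0.0039 and 6 of 14 were higher at 1 day. With only the immediate and 1-day arrays in the fit, Hspa5 (-0.20, limma adjusted p = 0.0395), Hyou1 (-0.23, 0.0465) and Dnajb9 (-0.19, 0.0452) were called. That fit called 1373 of all genes.

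Of the 5 sensors and factors, 0 were called against control at any time. Immediately 3 of 5 had an unadjusted p under 0.05, Xbp1 and Atf4 above control and Atf6 below it, where 15.5% of all genes did. Xbp1, the splice target of ERN1 and the factor behind much of the chaperone program, had the widest difference. It read 11.04, 11.17 and 11.10 in controls, 11.61, 11.50 and 11.65 immediately, and 11.26, 11.45 and 11.28 at 1 day. At 7 days it read 10.98, 11.34 and 11.67 and at 14 days 11.13, 11.51 and 11.60. All 6 early arrays lay above the controls, and the late male arrays lay in or below the control range. The immediate difference was 0.48 ± 0.14 (limma adjusted p = 0.115), the other 3 Xbp1 probe sets gave 0.41, 0.51 and 0.56, and it passed with only the control and immediate arrays in the fit (adjusted p = 0.0129), with array weights (0.0286) and with sex as a term (0.0454). These probe sets measure total Xbp1 RNA, and splicing was not analysed here.

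Atf4 itself, which is controlled mainly through translation, read 10.63, 10.57 and 10.53 in controls, 10.77, 10.70 and 10.71 immediately, 10.80, 10.69 and 10.62 at 1 day, 10.69, 10.68 and 10.54 at 7 days, and 10.71, 10.58 and 10.55 at 14 days. The immediate arrays lay above the controls by 0.15 ± 0.06 (limma adjusted p = 0.241). With the mean over its 3 probe sets the immediate difference was 0.33 and passed (adjusted p = 0.0314). Atf6 read 7.88, 8.00 and 7.97 in controls, 7.80, 7.81 and 7.74 immediately, 7.86, 7.91 and 7.92 at 1 day, 8.04, 7.96 and 7.89 at 7 days, and 7.90, 7.99 and 8.10 at 14 days. On the used Atf6 probe set the immediate arrays lay below all controls, with a difference of -0.17 ± 0.07 (adjusted p = 0.246). The Atf6 probe sets that were not used gave 0.07 and 0.35 immediately, on the other side of control.

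Ern1 read lower at 1 day on its used probe set. Its values were 8.11, 7.71 and 7.90 in controls, 7.80, 7.83 and 7.95 immediately, 7.75, 7.48 and 7.37 at 1 day, 7.99, 7.69 and 7.93 at 7 days, and 7.96, 7.95 and 7.75 at 14 days. The 1-day difference from control was -0.37 ± 0.12 and did not pass (limma adjusted p = 0.0985), and 1-day replicate 1 overlapped the controls. The Ern1 probe set with the next highest mean (5.69) gave 0.19 at 1 day, on the other side of control. Eif2ak3 stayed within a narrow range, with 9.39, 9.40 and 9.41 in controls, 9.42, 9.36 and 9.48 immediately, 9.40, 9.56 and 9.34 at 1 day, 9.36, 9.33 and 9.33 at 7 days, and 9.43, 9.38 and 9.36 at 14 days. Its differences from control ran from -0.06 to 0.03.

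The 4 ER degradation genes had median differences of 0.01 immediately, -0.03 at 1 day, 0.09 at 7 days and 0.07 at 14 days, and 0 were called against control. Sel1l, the adaptor of the ubiquitin ligase Syvn1, read 9.81, 9.81 and 9.91 in controls, 9.80, 9.77 and 9.76 immediately, 9.67, 9.75 and 9.63 at 1 day, 9.87, 10.06 and 9.90 at 7 days, and 9.66, 9.86 and 9.97 at 14 days. Its 1-day arrays lay below all controls and below all 7-day arrays. Between 1 and 7 days Sel1l rose by 0.26 ± 0.07 (limma adjusted p = 0.0376), and this call was lost without 7-day replicate 2 or any 1 array of 1 day. With the mean over its 5 probe sets the rise was 0.07 and was not called.

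Herpud1, an ER membrane adaptor for degradation whose window held both ERSE-II and CARE, read 10.58, 10.58 and 10.61 in controls, 10.54, 10.31 and 10.48 immediately, 10.39, 10.69 and 10.62 at 1 day, 10.41, 10.58 and 10.72 at 7 days, and 10.53, 10.72 and 10.88 at 14 days. Its immediate arrays lay below the controls, with a difference of -0.15 ± 0.10 (limma adjusted p = 0.516), on the other side of control from the 14 chaperones. Edem1, which marks misfolded glycoproteins for removal, read 7.86, 8.01 and 7.95 in controls, 8.07, 7.99 and 8.19 immediately, 8.09, 7.97 and 7.90 at 1 day, 7.99, 8.03 and 8.27 at 7 days, and 8.01, 8.00 and 8.09 at 14 days. Its differences were 0.14, 0.05, 0.16 and 0.09 in that order of times, and each group overlapped the controls. Syvn1 differed by -0.03 to 0.08.

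**Figure D3:**
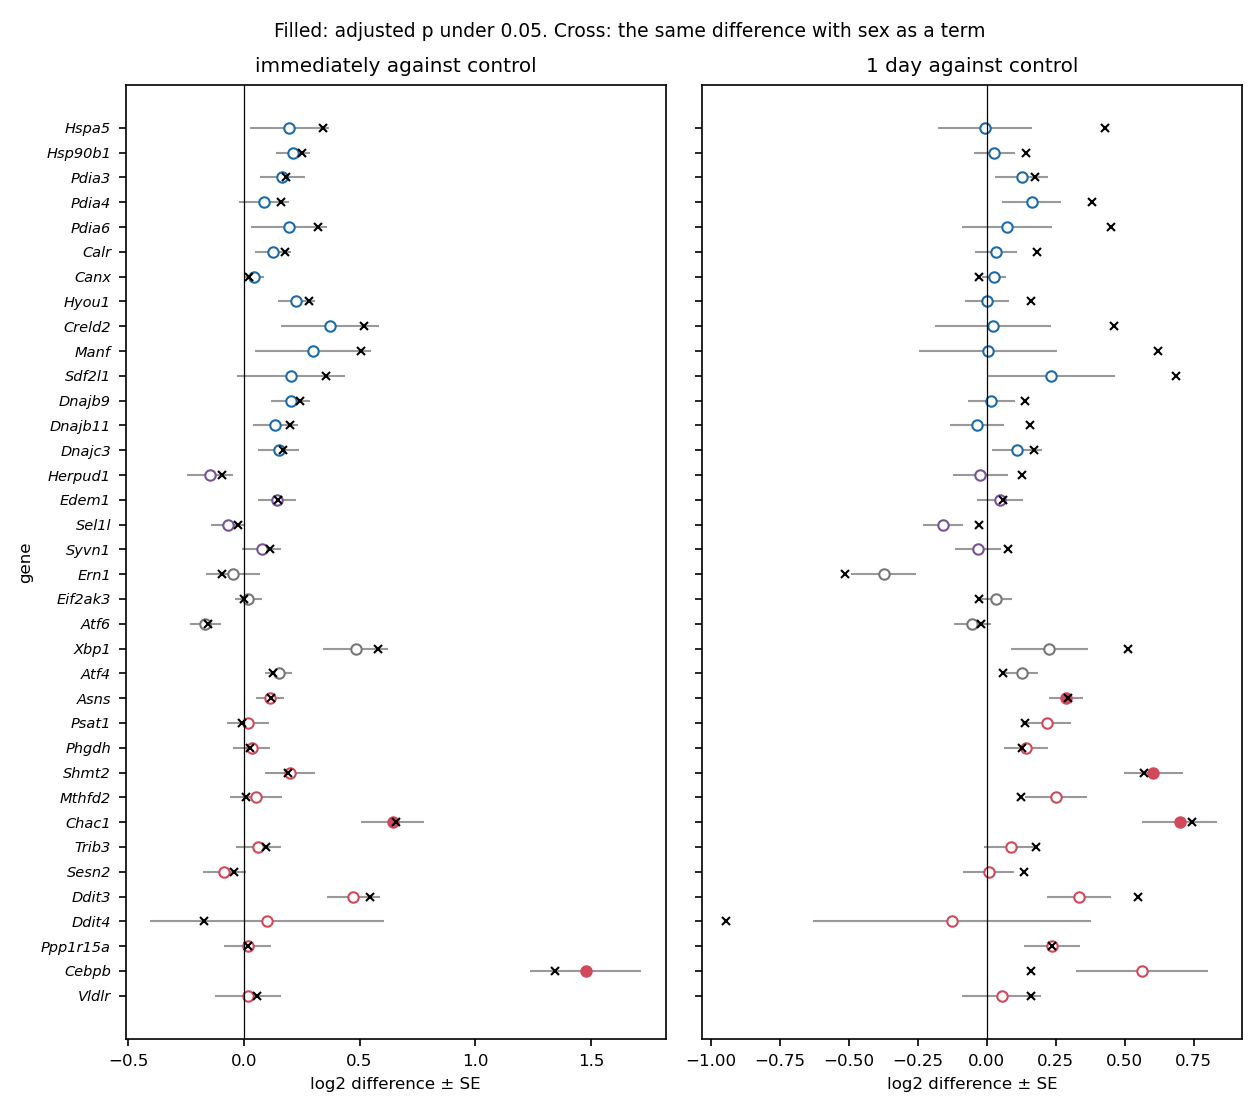
Log2 difference from control with its standard error for all 36 members, immediately after noise (left) and at 1 day (right), with filled points for an adjusted p under 0.05 and crosses for the same difference with sex as a term in the fit. All 14 chaperone points (blue) lie above 0 immediately, and at 1 day the crosses of most chaperones lie to the right of their points.

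Chaperones and ATF4 targets were compared on each array by the median over each role of the value minus the gene's control mean. The chaperone median was -0.04, 0.04 and 0.00 on the control arrays and 0.17, 0.19 and 0.18 on the immediate arrays. It was -0.02, 0.09 and 0.04 at 1 day. The immediate arrays were thus alike and all above the controls, and 2 of 3 arrays of 1 day lay in the control range. The ATF4 target median was -0.03, 0.02 and -0.02 in controls, 0.15, 0.04 and 0.05 immediately, and 0.10, 0.29 and 0.20 at 1 day. For the targets the arrays of 1 day stood above the controls on all 3 arrays and above the immediate arrays on 2 of 3. At 7 days the target medians were 0.00, -0.01 and 0.04 and at 14 days 0.06, 0.01 and -0.01, near the control level. The pooled spread between arrays of a group (SD) was 0.13 for chaperones and 0.06 for targets. No test was made of these medians, since the roles were chosen with earlier results of these data known.

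**Figure D4:**
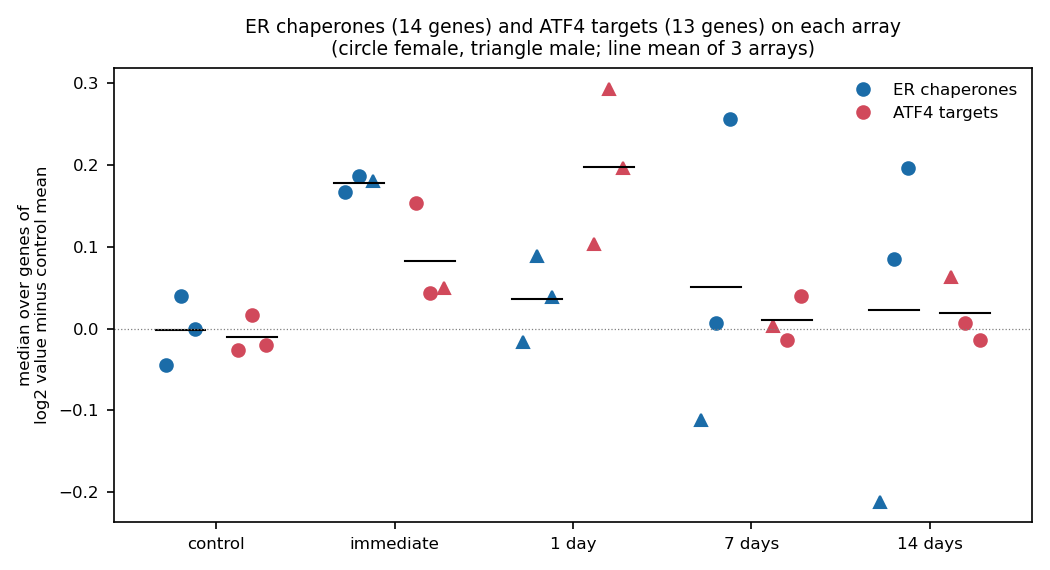
Median over genes of the log2 value minus the gene's control mean, for 14 ER chaperones (blue) and 13 ATF4 targets (red) on each array (circles female, triangles male, lines group means). The 3 immediate arrays of the chaperones sit between 0.17 and 0.19, and the 3 arrays of 1 day sit between 0.10 and 0.29 for ATF4 targets.

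The contrast between roles at 1 day moved with the sex term. With sex as a term in the fit, the 1-day medians were 0.18 for chaperones and 0.16 for ATF4 targets, in place of 0.03 and 0.24. The immediate medians were 0.25 and 0.06, in place of 0.20 and 0.06. The term rests on the 3 groups that hold both sexes, each with 1 male, since all controls were female and all 1-day animals male, so at 1 day no comparison within a sex could be made. With that term 0 of 36 members were called at 1 day, while the number of all genes called went from 434 to 75. The sizes were similar: Chac1 0.74 (limma adjusted p = 0.0861), Shmt2 0.57 (0.0925) and Asns 0.29 (0.123). Immediately, 3 members were called with the sex term, while the number of all genes called went from 127 to 79. The 3 were Cebpb at 1.34 (adjusted p = 0.017), Ddit3 at 0.55 (0.0309) and Xbp1 at 0.58 (0.0454), and Chac1 at 0.66 was not called (0.0604).

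The male and female arrays differed in the chaperones, mostly in the late groups, where sex and replicate number cannot be told apart. Males were below females for 13 of 14 chaperones (median -0.18), 0 of them called, and 6 of all genes tested were called for sex. The widest were Manf at -0.62 (limma adjusted p = 0.827), Sdf2l1 at -0.45 and Creld2 and Hspa5 at -0.44. For the 13 ATF4 targets the median was 0.00. The male arrays had chaperone medians of -0.11 at 7 days and -0.21 at 14 days, against 0.01 and 0.26 for the 7-day females and 0.09 and 0.20 for the 14-day females. Immediately after noise the male array stood at 0.18, between the females. Both late male arrays were replicate 1, and the immediate male was replicate 3. In all 5 groups replicate 1 had the lowest chaperone median, also in the all-female controls and the all-male 1-day group. The sex term for the chaperones rests on these same arrays. Hair cell markers, of which 4 of 7 were above the filter, had the same order of arrays as the chaperones at the late times. The other marker lists did not share that order at both late times. With 3 arrays to a group, an order shared by 1 of many lists says little. The hair cell median was -0.45 on the male array and -0.09 and 0.71 on the female arrays at 7 days, and -0.05, 0.09 and 0.66 at 14 days. The order was also shared in controls (-0.14, 0.16 and -0.01) and at 1 day (-0.235, 0.66 and 0.00). It was not shared immediately, where these markers stood at 0.02 and -0.24 in the females and 0.405 in the male. Their summed level was 8.32 to 8.56 in controls, 7.87 to 9.10 at 7 days and 8.31 to 8.95 at 14 days (log2 of the summed linear values). Their part in the chaperone values was not tested.

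Changes from each time to the next involved few members. From the immediate group to 1 day, Shmt2 rose and Cebpb fell by 0.91 (limma adjusted p = 0.0321), 2 of 36 members, while 8.39% of all genes were called. The Cebpb call was lost when replicate 1 or 3 of either group was left out (-1.13 to -0.67, adjusted p up to 0.13), and Shmt2 was not called when any 1 array of these groups was left out (0.34 to 0.45, adjusted p up to 0.128). From 1 to 7 days Sel1l rose and Shmt2 and Ppp1r15a fell, 3 of 36, while 9.35% of all genes were called. Shmt2 was not called there without 1-day replicate 2 or 3 or 7-day replicate 2 (-0.46 to -0.28). Both counts are shares below those of all genes. At an unadjusted p under 0.05 the counts were 9 of 36 in each of these steps, near the 24.4% and 25.8% of all genes. From 7 to 14 days 0 of 36 were called, as were 0% of all genes, and 1 member, Chac1, had an unadjusted p under 0.05 (2.1% of all genes).

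Genes of the same pathways outside the 36 were read from 8 lists of 163 genes, of which 156 had a probe set and 151 were tested. Immediately 3 rose and 1 fell, and at 1 day 6 rose and 0 fell, where 0.931% and 3.18% of all genes were called, so the 1-day share was near that of all genes. At 7 and 14 days 0 were called, with 26 and 12 at an unadjusted p under 0.05, against 11.2% and 7.85% of all genes. The calls against control were all in lists of ATF4 targets and signal factors. Of the wider ER lists, 28 folding, 24 degradation and 28 import and export genes and 21 sensors and factors were tested, and 0 were called against control at any time. The wider folding genes had an immediate median of 0.06, below the 0.20 of the 14 chaperones, with 19 of 28 above control (44.5% of all genes).

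The aminoacyl-tRNA synthetases load amino acids onto tRNA and are known ATF4 targets. At 1 day 12 of 12 were above control (47.1% of all genes), with a median of 0.12 and a range of 0.01 to 0.34. At 7 days 10 of 12 were above control (53% of all genes), with a median of 0.09. The wider ATF4 lists of transporters and of metabolic genes had 8 of 11 and 7 of 11 above control at 1 day. Their medians were 0.09 and 0.04, and 0 were called. With sex as a term the metabolic genes had a 1-day median of -0.02, with 4 of 11 above control. Sars rose at 1 day by 0.34 (limma adjusted p = 0.00186), and Iars rose immediately by 0.28 (adjusted p = 0.026). Gpt2, an alanine transaminase, rose immediately by 0.55 (adjusted p = 0.0324), and Slc43a1, an amino acid transporter, fell by 0.69 (adjusted p = 0.0128). Among 16 tested signal factors, Gadd45a (1.84, adjusted p = 0.00137), Atf3 (1.64, 0.00573) and Nfil3 (0.94, 0.0193) had the largest rises at 1 day, and Fgf21 (0.84, 0.0118) and Sqstm1 (0.28, 0.00785) rose too. Of the 16, 11 were above control at 1 day (47.1% of all genes), and the lowest difference was -0.37. At an unadjusted limma p under 0.05, 8 were above and 3 below control (17.9% of all genes in either direction). Nfil3 also rose immediately by 0.91 (adjusted p = 0.0415). Of the 6 that rose at 1 day, 5 were called with sex as a term, and Nfil3 was not (0.76, adjusted p = 0.183). The 3 immediate rises were all lost with that term, Iars at an adjusted p of 0.0504, Gpt2 at 0.0604 and Nfil3 at 0.0752, and the fall of Slc43a1 was called (0.00982). Gadd45a and Atf3 are also known to respond to nerve injury and DNA damage.

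Markers of other cell types moved at the times of these results. At 1 day 7 of 12 macrophage markers rose, with a median difference of 0.80, and their summed level was 11.92 to 12.02 (log2 of the summed linear values) against 11.15 to 11.34 in controls, with no overlap. Immediately the summed level was 10.98 to 11.26 and 0 of 12 were called. At 1 day 3 of 8 Schwann cell markers (Fa2h, Ncmap and S100b) fell, and their summed level was 15.02 to 15.12 against 15.13 to 15.20 in controls. Of 12 neuron markers, 1 (Uchl1) rose and 1 (Calb2) fell, and the summed level was 15.63 to 15.71 against 15.82 to 15.85. Bone markers, of which 6 of 8 were tested, had medians of -0.36, -0.89, -0.58 and -0.72 against control from immediately to 14 days, and 2 fell at 1 day. With sex as a term, 3 of 12 macrophage markers were called at 1 day, with a median of 0.78, and 0 of the Schwann cell, neuron and bone markers. The part of these cell types in the values of Chac1, Shmt2, Asns and the other ATF4 targets at 1 day was not tested. Markers of B and plasma cells, whose ER is large, were mostly under the filter (2 of 8 tested), with 0 called. Neutrophil markers, of which 6 of 7 were tested, had summed levels of 8.53 to 12.08 in controls, 9.02 to 11.59 immediately and 7.92 to 8.33 at 14 days. Against control 0 were called, and at 14 days 4 of 6 were below it at an unadjusted limma p under 0.05 (7.85% of all genes in either direction). The part of neutrophils in the Cebpb values was not tested.

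The choice of probe set mattered for some members. The 36 members had 90 probe sets, 54 of them not used, and 8 members had only 1, among them Chac1, Ppp1r15a, Creld2 and Manf. The unused sets gave a difference of the same sign as the used set in 33 of 54 cases immediately, 37 at 1 day, 34 at 7 days and 31 at 14 days. For Cebpb the other set gave 1.59 immediately, close to the 1.48 of the used set, and for Ddit3 it gave 0.52 against 0.47. For Hspa5 the 3 sets gave 0.20, 0.36 and 0.04.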

How the data were processed

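RNA of the auditory nerve was measured in 15 mice, 3 in each of 5 groups, from 50 ng of total RNA labelled with biotin. The deposited table holds log2 values for 45101 probe sets. Affymetrix Expression Console, RMA and MAS5 are named in the submitters' processing notes; for the step that produced the deposited log2 values, the choice among them is not given in the sources used. The log2 values, from 2.06 to 14.63, were used as deposited. The number of arrays limits the precision, and p-values measure the spread between these animals.

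The platform annotation assigned 34945 probe sets to 1 gene, and 932 sets with several genes were left out. Each of the 18193 genes was represented by the probe set with the highest mean, and the lowest 25% of genes were dropped, which left 13644. All 5 groups entered 1 linear model per gene (limma 3.58.1 under R 4.3.3, moderated with a mean-variance trend) (10 residual degrees of freedom), with two-sided tests and Benjamini-Hochberg adjustment over all genes tested for each of 7 contrasts. The functions were checked on simulated data. Same-numbered arrays of different groups had correlated deviations from r = -0.33 to 0.30 (median 0.06) over 30 pairs, 11 of them above 0.1. Different-numbered arrays ran from r = -0.49 to 0.37 (median -0.03) over 60 pairs, 14 of them above 0.1. Replicate numbers were not taken as pairs in the main fit, and a fit with them as a block was run as an alternative. The members and all lists were chosen with earlier results of these data known. Array values are given for each member called in any contrast and, in each role and at each time, for the 2 members with the widest difference from control. Genes of the wider lists are named where called, at most 3 per list and contrast; Fgf21 and Sqstm1 go beyond that number and were named after their values were seen, as were Hspa5, Hsp90b1 and Hyou1 with their array values. Promoter motifs were matched exactly on both strands of RefSeq windows. Alternatives changed the filter, probe set rule, trend, array weights, normalization, groups fitted, sex term, replicate block and arrays included.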

Additional observations from a re-analysis of the deposited data

Results flagged for a closer look

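4 members differed between noise groups of successive times by a test of that difference (limma, Benjamini-Hochberg adjusted). Cebpb was lower at 1 day than immediately after noise, with a difference of -0.91 ± 0.24 on the log2 scale (adjusted p = 0.0321). Shmt2 was higher at 1 day than immediately, by 0.40 ± 0.11 (adjusted p = 0.0332), and lower at 7 days than at 1 day, with a difference of -0.39 ± 0.11 (adjusted p = 0.0336). Ppp1r15a was lower at 7 days than at 1 day, with a difference of -0.39 ± 0.10 (adjusted p = 0.0267). Sel1l was higher at 7 days than at 1 day, by 0.26 ± 0.07 (adjusted p = 0.0376). Each comparison had 3 arrays in each group, and the arrays of the compared groups did not overlap. These are 2 of 36 members for 1 day against immediately and 3 of 36 for 7 days against 1 day, shares no higher than the 8.39% and 9.35% of all genes called in the same comparisons. With the mean over its probe sets Shmt2 differed by 0.26 and -0.13 and was called in neither. With sex as a term in the fit, the difference in Cebpb was -1.18 and was still called (adjusted p = 0.0174), and the other 4 differences were not called.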

How the results depend on the processing

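Counts of members called follow, each with the number of all genes called in the same fit in brackets. Immediately against control the count was 2 in the report (127), 4 with array weights (757) and 4 with only the 2 groups in the fit (135). It was 0 in female arrays only (8). At 1 day against control, 3 (434) became 5 with array weights (1106) and 0 with sex as a term (75). For 1 day against immediately, 2 (1145) became 4 with array weights (1898) and 6 with only the 2 groups (1373). That count was 1 with sex as a term (652), with the lowest 50% of genes left out (1075) and with the mean over probe sets (1078). For 7 days against 1 day, 3 (1276) became 0 with sex as a term (449), with array weights (710) and with only the 2 groups (200). The F test over all groups called 3 in the report (921) and 5 with array weights (1798). The replicate block left the counts against control at 2, 3, 0 and 0 (182, 567, 3 and 0). It called 1 more member for 7 days against 1 day (Chac1, -0.42, limma adjusted p = 0.0443), where 1505 of all genes were called.

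The 1-day median was 0.18 for chaperones and 0.16 for ATF4 targets with sex as a term. The 7-day median of ATF4 targets was 0.0061 with sex as a term, 0.010 with array weights and 0.01 in female arrays. With each array left out in turn, counts against control ran from 0 to 4 immediately, 0 to 4 at 1 day, 0 to 1 at 7 days and 0 to 0 at 14 days; from 0 to 2 for 1 day against immediately, 0 to 4 for 7 days against 1 day, 0 to 0 for 14 days against 7 days, and 2 to 4 in the F test. Chaperone medians ran from 0.17 to 0.20, 0.01 to 0.07, -0.04 to 0.14 and -0.02 to 0.14 over the 4 times, and ATF4 target medians from 0.04 to 0.10, 0.18 to 0.28, 0.01 to 0.14 and -0.03 to 0.03. The alternatives for the contrasts between successive times and for the F test were chosen after seeing the data. All 14 chaperones and 13 targets passed the filter, so no median changed without it. No 1-day array is from a female, so that alternative was not run there. In the other alternatives these counts and medians stayed within 1.5 times or 1 SD of those reported, and the causes of the changes above were not tested.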

Other observations

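Genes that bring new protein into the ER and send it out, none of them among the 36 members, moved between the noise groups although 0 of 28 were called against control at any time. From 1 to 7 days 7 of 28 fell and 0 rose, while 9.35% of all genes tested were called in either direction (limma, Benjamini-Hochberg adjusted). Over all 8 wider lists 16 of 151 were called in this step, near that share, and of the 16 signal factors 1 rose and 3 fell. The 7 import and export genes were Sec11c, a subunit of the signal peptidase, Sec61a1, the pore of the translocon, and its associated subunits Ssr1, Ssr3 and Ssr4. The others were Srp19 of the signal recognition particle and Sar1b, a GTPase of ER export. Sec11c read 10.77, 10.88 and 10.92 at 1 day and 10.49, 10.37 and 10.50 at 7 days, without overlap, against 10.71, 10.54 and 10.53 in controls, and it fell by 0.40 (adjusted p = 0.00702). The other 6 fell by 0.18 to 0.23. With sex as a term 2 of these 7, Sec11c and Ssr4, were called. Macrophage marker levels also fell between these times, 8 of 12 called with a median difference of -0.79, and their part in these values was not tested.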
